A study of Rattus norvegicus with 9 samples.

Results

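The clade B serpins and stefins are protease inhibitors that work mainly inside cells, and they were followed here in MNU-induced bladder tumors of the rat (bladder transitional cell carcinoma, BTCC). The group was chosen by gene symbol, with earlier results of these arrays known, and holds 10 named genes: Serpinb2, Serpinb10, Serpinb5, Serpinb1a, Serpinb6, Serpinb9, Serpinb7, Stfa2l2, Cstb and Cst3. A gene was included where a probe set of the array mapped to that symbol alone, which gave 12 probe sets for 9 of the 10 genes, out of 14217 genes measured. Serpinb6 was read under its current rat symbol, Serpinb6a. No probe set carries the symbol Serpinb5 in the annotation used, and Serpinb5 is not analysed here. Where a gene had several probe sets, the brightest over the 9 arrays is given before the other.

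Female Sprague-Dawley (SD) rats, labelled as 10 weeks old, received the alkylating carcinogen N-methyl-N-nitrosourea (MNU) into the bladder, at 20 mg/ml each week over 10 weeks. Affymetrix arrays measured RNA from 3 tumors, from 3 pieces of normal tissue beside the tumors of the same 3 rats, and from normal bladder of 3 other rats. The series design calls the last 3 animals normal, although the MNU text stands in the labels of all 9 samples. All tumors come from this 1 chemical model, and no other agent or allele is named for any group. Each value is a log2 signal of the MAS 5.0 algorithm, a robust average over the probe pairs of a probe set on an array. The median log2 signal was 6.87 to 7.17 in tumors, 6.95 to 7.05 in adjacent tissue and 7.19 to 7.23 in normal bladder. Signals under 50 (log2 5.64) are called dim. Replicates scattered more there, with a median SD of 0.87 at log2 levels of 4 to 5.64 and of 0.24 at 9 to 11. If every array of the lower tissue was dim, its level is set to 50 and the fold is written as "at least". Levels of different probe sets are not comparable with each other, so each gene is compared only with itself.

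Serpins inhibit proteases by suicide: the protease cuts an exposed loop of the serpin, which then snaps into a new shape and locks the enzyme in a covalent complex. Clade B members lack a classical secretion signal and stay largely in the cytosol, where they guard cells against serine proteases, granzymes and, in some cases, cysteine proteases. Stefins are small cytosolic proteins that block the active site of cysteine cathepsins reversibly, and cystatin C, the product of Cst3, does the same outside the cell. In epithelia, several of these genes are known as products of the basal or cornifying layers, and others as products of neutrophils, macrophages and lymphocytes.

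On rat chromosome 13, 10 clade B genes lie in a row in the RefSeq annotation (GRCr8), and Serpinb7, Serpinb2 and Serpinb10 are direct neighbours there, in that order and on the same strand. Their promoters are shown because Serpinb7 differed in direction from the other members beside it. Each run is the 250 bases before the gene start of the RefSeq table, 5′ to 3′, at chr13:23910056-23910305 for Serpinb7, chr13:24055771-24056020 for Serpinb2 and chr13:24067803-24068052 for Serpinb10 (GRCr8, plus strand). Capitals mark matches to the motifs searched.
Serpinb7: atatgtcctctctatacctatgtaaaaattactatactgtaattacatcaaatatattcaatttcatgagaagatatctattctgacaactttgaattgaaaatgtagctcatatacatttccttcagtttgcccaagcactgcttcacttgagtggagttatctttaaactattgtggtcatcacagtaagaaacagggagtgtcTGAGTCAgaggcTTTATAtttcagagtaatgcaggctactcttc
Serpinb2: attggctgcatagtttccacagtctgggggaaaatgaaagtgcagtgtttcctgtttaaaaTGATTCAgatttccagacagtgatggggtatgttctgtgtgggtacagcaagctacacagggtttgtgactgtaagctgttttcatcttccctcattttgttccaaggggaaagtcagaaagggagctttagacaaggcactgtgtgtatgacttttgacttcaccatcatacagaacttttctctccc
Serpinb10: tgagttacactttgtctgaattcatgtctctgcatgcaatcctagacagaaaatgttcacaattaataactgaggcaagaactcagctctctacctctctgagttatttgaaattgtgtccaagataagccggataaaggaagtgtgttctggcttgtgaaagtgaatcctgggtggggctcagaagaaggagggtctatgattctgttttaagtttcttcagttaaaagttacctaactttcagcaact
All 10 named genes had an entry in the promoter table. The motifs searched on both strands were the TATA box (TATAAA), the AP-1 element (TGANTCA) and the cyclic AMP response element (TGACGNCA), which do not overlap each other in these windows. Of 27457 rat promoters of this length, 13.1% hold the TATA letters, 6.36% the AP-1 letters and 2.8% the cyclic AMP letters. Serpinb7 had TGAGTCA at 44 to 38 bases and TTTATA (the TATA letters on the other strand) at 32 to 27 bases before its start. Serpinb2 had TGATTCA at 189 to 183 bases before its start, and Serpinb10 had no match. Among the other named genes, Serpinb5 had TGAATCA at 144 to 138 bases and Serpinb1a TATAAA at 62 to 57 bases before the start. A match is a description of the letters, not of binding.

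Serpinb2, Serpinb10 and Stfa2l2 were near the bottom of the array's range in normal bladder and well above the dim limit in every tumor and every adjacent sample. Serpinb2 encodes plasminogen activator inhibitor type 2, which inhibits the urokinase-type and tissue-type plasminogen activators and is made by stressed epithelium and by macrophages. Tumors 1, 2 and 3 had log2 signals of 12.00, 12.47 and 13.29, adjacent samples 1, 2 and 3 had 11.43, 12.88 and 13.74, and normal samples 1, 2 and 3 had 0.00, 0.00 and 1.71, the order of arrays used for every gene. On the linear scale this is a signal of 4092 to 10015 in tumors, 2761 to 13670 in adjacent tissue and at most 3.3 in normal bladder. No tumor or adjacent array overlapped with a normal array, and the range of the tumors lay within that of adjacent tissue. The means were 12.6 ± 0.65 in tumors, 12.7 ± 1.17 in adjacent tissue and 0.57 ± 0.99 in normal bladder (mean ± SD of 3 arrays). Serpinb2 was thus at least 123-fold higher in tumors and at least 131-fold higher in adjacent tissue than in normal bladder, and 1 array left out of the bright group moved these bounds between 96.3-fold and 150.6-fold in tumors and between 91.1-fold and 202.8-fold in adjacent tissue.

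Serpinb10 encodes bomapin, a nuclear clade B serpin known from blood-forming and myeloid cells. Tumors had log2 signals of 9.19, 9.65 and 12.01, adjacent tissue had 9.84, 10.43 and 11.87 and normal bladder had 2.91, 1.58 and 1.02. Tumor 3 and adjacent sample 3 were the highest of their groups, and neither group overlapped with normal bladder. The mean was at least 25.0-fold higher in tumors and at least 33.6-fold higher in adjacent tissue than in normal bladder. The bound in tumors rests on tumor 3 and is at least 13.7-fold without it, and that in adjacent tissue is at least 22.5-fold without adjacent sample 3. Stfa2l2 is a stefin A-like gene, and in mice genes of this cluster are known as abundant products of neutrophils. It read 8.15, 8.78 and 9.99 (log2) in tumors, 8.66, 9.67 and 13.28 in adjacent tissue and 0.00, 2.21 and 1.28 in normal bladder. Adjacent sample 3 stood far above the other arrays, at a linear signal of 9936 against 404 and 814 in the other adjacent samples. Stfa2l2 was at least 10.1-fold higher in tumors and at least 29.7-fold higher in adjacent tissue than in normal bladder. Without adjacent sample 3 the bound in adjacent tissue drops to at least 11.5-fold, and without adjacent sample 1 it is at least 56.9-fold. Its cluster on chromosome 11 holds the related genes Stfa2, Stfa2l1, Stfa2l3, Stfa3l1, Csta and Csta3, to which the annotation used gives no probe set. Whether the Stfa2l2 probe set also takes up their transcripts cannot be told apart here.

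**Figure D1:**
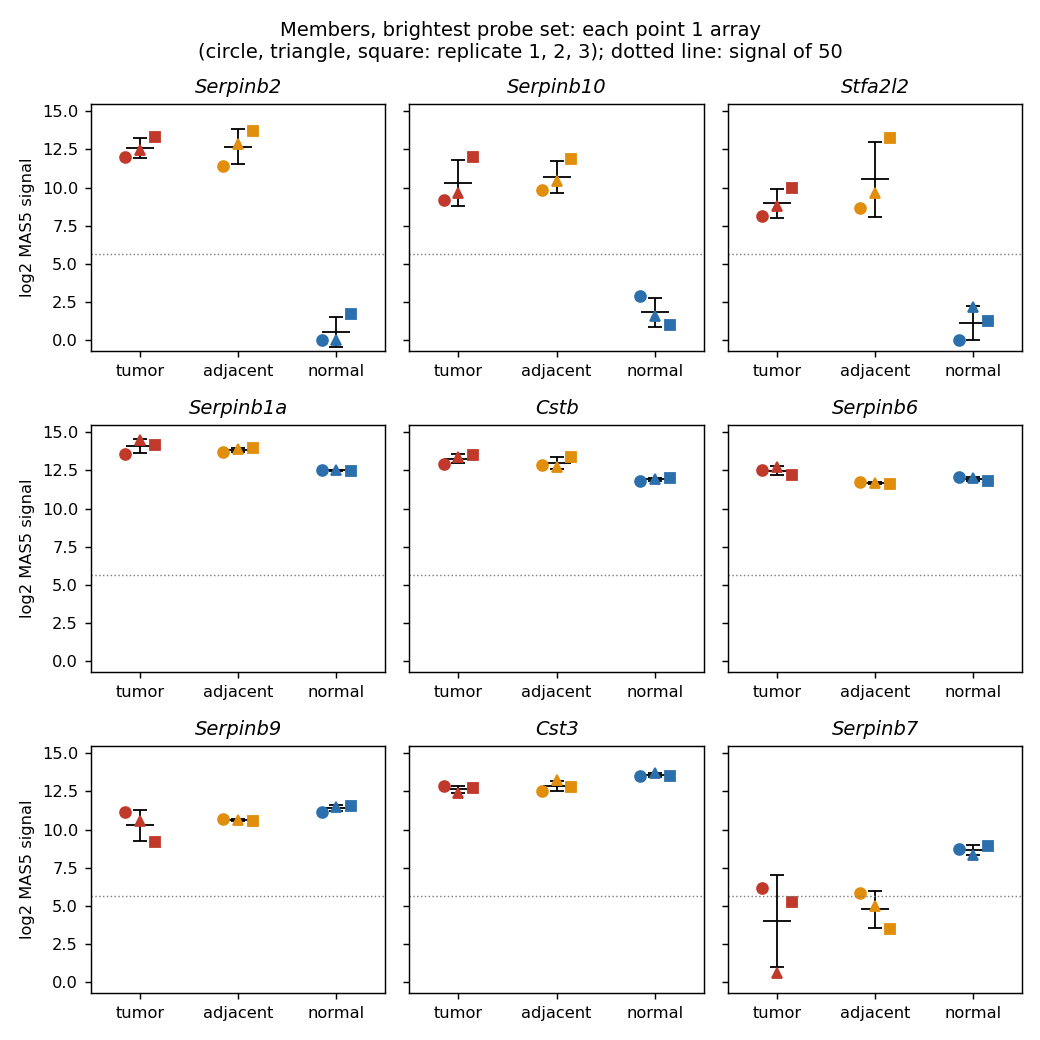
log2 MAS 5.0 signal (y axis) of the brightest probe set of the 9 genes measured, in tumor, adjacent and normal bladder samples (x axis); each point is 1 array, bars show the mean and SD of 3 arrays, and the dotted line marks a signal of 50. Serpinb2, Serpinb10 and Stfa2l2 lie below 3 in normal bladder and above 8 in all other samples, whereas Serpinb7 lies above 8 in normal bladder only.

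Serpinb1a and Cstb, which were bright in every tissue, were also higher in tumors and in adjacent tissue. Serpinb1a encodes the rodent form of leukocyte elastase inhibitor, which blocks neutrophil elastase, cathepsin G and proteinase-3. On its brighter probe set tumors read 13.59, 14.49 and 14.16 (log2), adjacent tissue 13.71, 13.87 and 13.98 and normal bladder 12.56, 12.51 and 12.46. These values do not overlap with normal bladder, and the means were 2.97-fold higher in tumors and 2.54-fold higher in adjacent tissue. On the dimmer probe set of Serpinb1a the values were 11.23, 12.57 and 12.11 in tumors, 10.11, 11.48 and 11.61 in adjacent tissue and 10.55, 10.14 and 10.38 in normal bladder. There the tumors again stood above all normal samples (log2 difference 1.61, SE 0.32), but adjacent sample 1 lay below them. Cstb encodes stefin B, which inhibits lysosomal cathepsins that leak into the cytosol. The 3 tumors gave log2 signals of 12.92, 13.36 and 13.48, the adjacent samples 12.84, 12.70 and 13.40 and the normal bladders 11.80, 11.92 and 12.00. Neither tumors nor adjacent samples overlapped with normal bladder, and Cstb was 2.54-fold higher in tumors and 2.10-fold higher in adjacent tissue.

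For Serpinb7, Serpinb9 and Cst3 the means of tumors and of adjacent tissue lay below that of normal bladder. Serpinb7 encodes megsin, a clade B serpin known from the kidney mesangium and the upper layers of human skin. On its brighter probe set tumors read 6.18, 0.59 and 5.26 (log2), adjacent tissue 5.82, 5.02 and 3.47 and normal bladder 8.73, 8.32 and 8.93. Among the tumor and adjacent arrays, only tumor 1 and adjacent sample 1 were above the dim limit, and no tumor or adjacent array reached a normal array. The dimmer probe set of Serpinb7 read 4.90, 0.71 and 1.98 in tumors, 2.12, 5.08 and 4.89 in adjacent tissue and 6.97, 7.13 and 7.03 in normal bladder, so that both tumors and adjacent tissue were at least 2.64-fold lower. On the brighter one the tumors differed from normal bladder by -4.65 on the log2 scale (SE 1.32), by -5.74 without tumor 1 and by -2.94 without tumor 2.

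Serpinb9 encodes an inhibitor of granzyme B, which shields cytotoxic lymphocytes and some other cells from that protease. Tumors had log2 signals of 11.14, 10.53 and 9.16, adjacent tissue had 10.67, 10.60 and 10.54 and normal bladder had 11.17, 11.49 and 11.55. Tumor 1 lay just under the lowest normal sample and tumor 3 far under it, so the tumor mean of 45.8% of the normal level (log2 difference -1.13, SE 0.46) carries a wide error. The difference rests on tumor 3: it was -0.57 without tumor 3, against -1.56 without tumor 1. Adjacent samples lay close together at 57.3% of the normal level. The other Serpinb9 probe set had 10.15, 9.85 and 8.13 in tumors, 9.26, 9.59 and 9.65 in adjacent tissue and 10.21, 10.42 and 10.59 in normal bladder, the same order of groups. Cst3 encodes cystatin C, the secreted inhibitor of cysteine cathepsins that most tissues make. It read 12.84, 12.40 and 12.71 (log2) in tumors, 12.53, 13.23 and 12.80 in adjacent tissue and 13.53, 13.70 and 13.49 in normal bladder. All tumor and adjacent arrays lay below all normal arrays, at a mean of 52.6% of the normal level in tumors and 60.7% in adjacent tissue.

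Serpinb6 was the 1 of the 9 genes whose tumor and adjacent values did not overlap, as was found for 7.06% of all genes. It encodes a cytosolic serpin that in humans inhibits trypsin, thrombin and cathepsin G. The 3 tumors gave log2 signals of 12.55, 12.74 and 12.17, the adjacent samples 11.76, 11.70 and 11.60 and the normal bladders 12.05, 12.01 and 11.82. Tumors were thus the highest and adjacent tissue the lowest, with normal bladder between them and no overlap of any pair of groups. The tumor mean was 1.44-fold above normal bladder (log2 difference 0.53, SE 0.17, with 0.40 without tumor 2 and 0.69 without tumor 3), and the adjacent mean was 82.7% of it.

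Apart from Serpinb6, the genes showed 2 orders of tissues. Tumors and adjacent tissue overlapped above normal bladder for Serpinb2, Serpinb10, Stfa2l2, Serpinb1a and Cstb, and they overlapped below normal bladder for Serpinb7, Serpinb9 and Cst3. Across the 9 arrays the brightest probe sets of Serpinb2 and Serpinb10 had a Pearson's r of 0.98 with each other, Serpinb2 and Stfa2l2 one of 0.96, and Serpinb2 and Cstb one of 0.94. Serpinb7 ran the other way, with r = -0.92 against Serpinb1a. These coefficients are descriptions over 9 arrays of 3 tissues, in which normal bladder lay apart from the other samples. In bulk tissue, fewer cells of a type and less RNA per cell cannot be told apart.

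**Figure D2:**
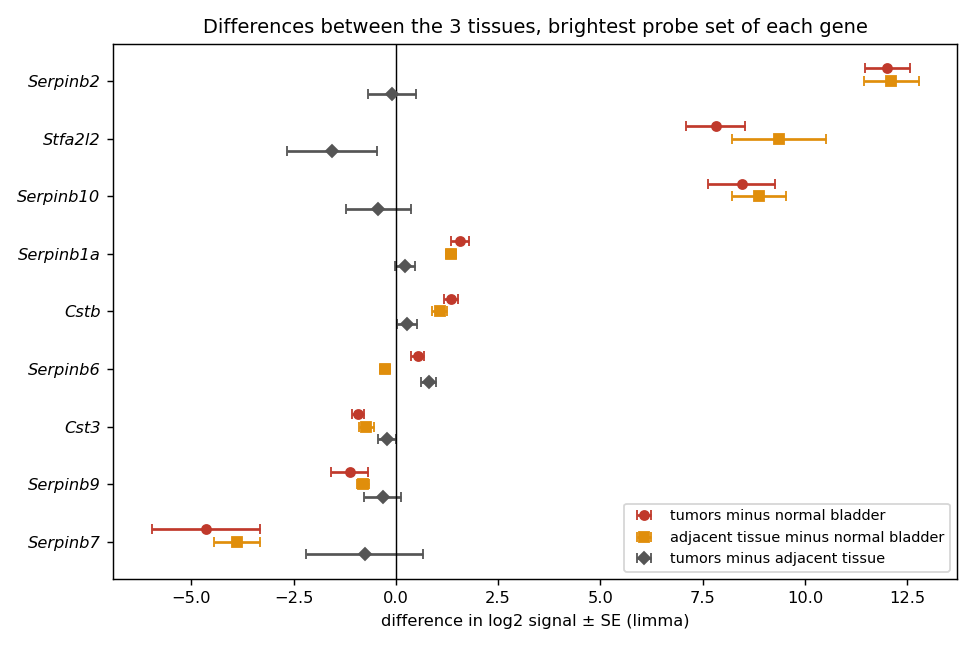
Difference in log2 signal (x axis, limma estimate, bars show ± SE) for the 9 genes (y axis) in tumors minus normal bladder (red circles), adjacent tissue minus normal bladder (orange squares) and tumors minus adjacent tissue (grey diamonds), 3 arrays per group. Red and orange points run from 12.01 and 12.11 for Serpinb2 to -4.65 and -3.89 for Serpinb7, and the grey points lie between -1.56 for Stfa2l2 and 0.80 for Serpinb6.

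Tumors were compared with normal bladder to ask which transcripts differ in the cancer. Since the record of how the 10 genes were selected on earlier results does not say which comparison was used, the values of the members in all comparisons are given as a description, with no p for a member. At an adjusted p under 0.05 from limma over all 31042 probe sets, the brightest probe set of 5 of the 9 genes was higher in tumors (Serpinb2, Serpinb10, Serpinb1a, Stfa2l2 and Cstb) and that of 1 lower (Cst3), while Serpinb7, Serpinb9 and Serpinb6 did not pass. The dimmer probe set of Serpinb7 did pass as lower (log2 difference -4.51, SE 1.0), with every tumor dim, and the other one of Serpinb9 did not pass. Over all genes, 13.6% were higher and 9.95% lower by the same rule. The groups did not overlap for 9 of the 9 genes, against 45.8% of all genes. The median log2 difference was 1.34 over the 9 genes and 0.05 over all genes. Because the genes were picked with these values in view, nothing is read from these counts. The call of Cst3 was lost without normal sample 2 (log2 difference -0.86, against -0.93 with all arrays), and those of Cst3 and Serpinb1a were lost by the methods' test of means. Calls were gained when an array was left out, for Serpinb7 without tumor 1 or tumor 2, for Serpinb9 without tumor 1 and for Serpinb6 without tumor 3. Serpinb7 also passed after quantile normalization or median centring, with the dimmest probe sets left out and with 50 added before log2. It passed in the joint fit of all arrays and with the replicate block too, but that block matches separate rats here by number alone. Serpinb6 passed after median centring and in the joint fit.

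Adjacent tissue was compared with normal bladder to ask whether tissue beside a tumor still resembles that of a normal rat. This comparison shares the 3 normal arrays with the one above and is no independent look at them. By the same rule the brightest probe set of 5 of the 9 genes was higher in adjacent tissue (Serpinb2, Serpinb10, Serpinb1a, Stfa2l2 and Cstb) and that of 3 lower (Serpinb9, Serpinb7 and Cst3), where 13.3% of all genes were higher and 11.5% lower. The groups did not overlap for 9 of the 9 genes, against 46.7% of all genes, and the median log2 difference was 1.07 over the 9 genes and 0.01 over all genes. Nothing is read from these counts either, for the same reason. Adjacent tissue was 12.11 log2 units above normal bladder for Serpinb2 (SE 0.68), 8.88 for Serpinb10 (SE 0.65) and 9.37 for Stfa2l2 (SE 1.15). Since the normal signals of these 3 genes were dim, their sizes are better read as the lower bounds given above. For Serpinb1a the difference was 1.34 (SE 0.12) on its brighter probe set, while its dimmer one did not pass (0.71, SE 0.37). For Cstb it was 1.07 (SE 0.19), a call lost by the methods' test of means.

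On the lower side, adjacent tissue differed from normal bladder by -3.89 (log2, SE 0.56) for Serpinb7 and, on its dimmer probe set, by -3.01 (SE 0.77). Adjacent samples 2 and 3 were dim on the brighter one, so its size is uncertain. All adjacent samples were dim on the dimmer one, whose size is better read as at least 2.64-fold lower. The Serpinb7 call was lost by the methods' test and where all 9 arrays were fitted jointly. Serpinb9 had differences of -0.80 (SE 0.14) and, on its other probe set, -0.91 (SE 0.17), and lost its call in that joint fit. The difference of Cst3 was -0.72 (SE 0.18). Its call was lost without adjacent sample 3, without each normal sample in turn, after median centring, with no variance trend and by the methods' test. Serpinb6 had a log2 difference of -0.27 (SE 0.12) and did not pass.

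Tumors were compared with adjacent tissue of the same 3 rats to ask what sets a tumor apart within its own bladder. By limma, 0 of the 9 genes passed, where 0% of all genes were higher and 0% lower in tumors. At an unadjusted p under 0.05 the count was 376 of 14217 genes and 1 of the 9, and the methods' test after adjustment also called 0. Serpinb6 was that gene, 0.80 higher in tumors (SE 0.18, 95% confidence interval 0.38 to 1.23), and it did not pass after adjustment. Its interval is a description of 1 gene picked from 9 and treats tissues of the same 3 rats as separate. Tumors and adjacent tissue did not overlap for 1 of the 9 genes, Serpinb6, against 7.06% of all genes. The median log2 difference was -0.21 over the 9 genes and 0.02 over all genes. As in the other comparisons, nothing is read from these counts.

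The intervals between tumors and adjacent tissue were wide for the genes with the largest gap to normal bladder. For Serpinb2 the difference was -0.10 on the log2 scale with a 95% interval of -1.44 to 1.25, for Serpinb10 it was -0.43 (-2.25 to 1.40), and for Stfa2l2 it was -1.56 (-4.13 to 1.01). They were narrower for Serpinb1a at 0.23 (-0.33 to 0.79), Cstb at 0.28 (-0.28 to 0.83) and Cst3 at -0.21 (-0.72 to 0.31). Serpinb9 lay at -0.32 (-1.37 to 0.72) and Serpinb7 at -0.77 (-4.11 to 2.58). A p that misses the threshold does not show that these levels were equal, and only for Cstb, Cst3 and the brighter probe set of Serpinb1a does the interval exclude a 2-fold difference either way. The dimmer probe set of Serpinb1a gave 0.90 (-0.19 to 2.0).

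**Figure D3:**
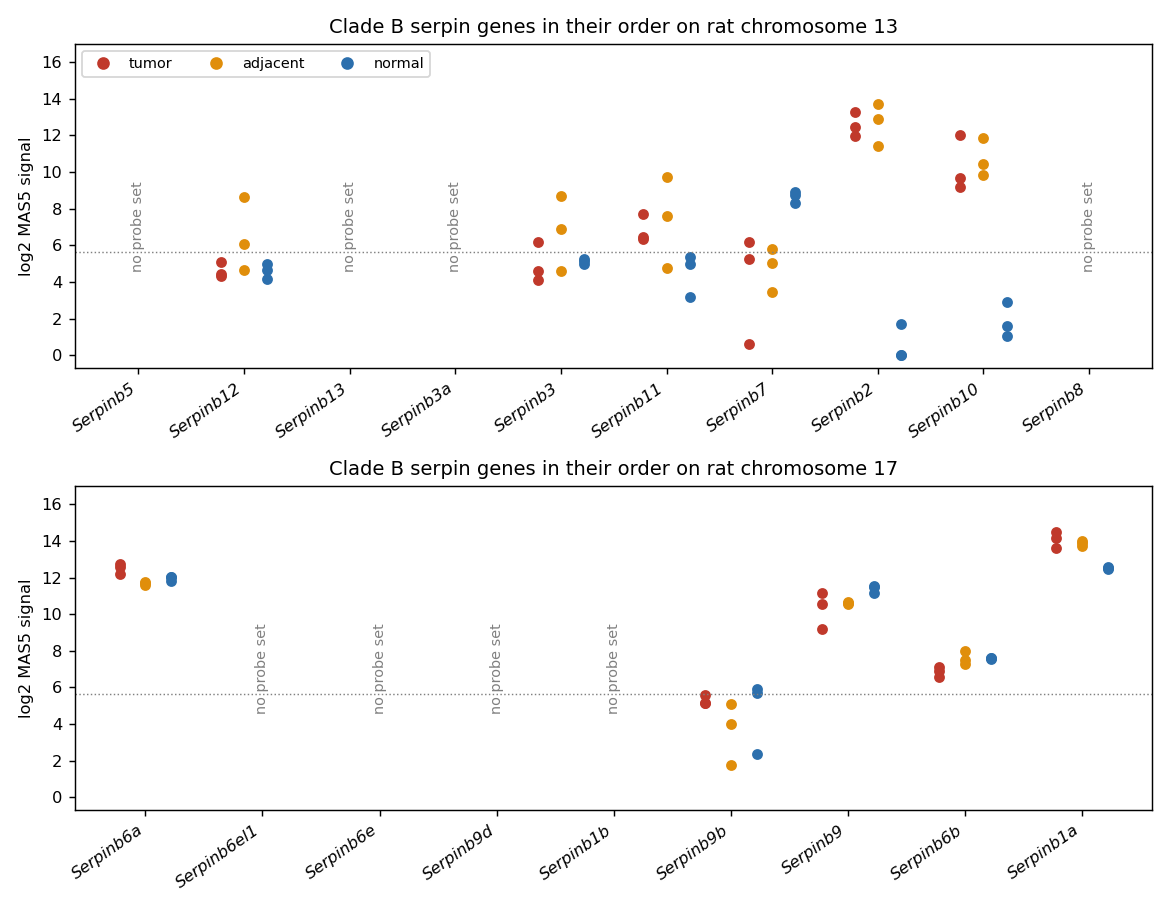
log2 MAS 5.0 signal (y axis) of clade B serpin genes in their order along rat chromosomes 13 and 17 (x axis, RefSeq, not to scale); each point is 1 array of tumor (red), adjacent tissue (orange) or normal bladder (blue), and genes without a probe set under that symbol in the annotation used are marked. On chromosome 13, Serpinb7 is highest in normal bladder while its neighbours Serpinb2 and Serpinb10 are lowest there; heights of different genes are not comparable.

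The position of these genes shows how near opposite patterns lie. Serpinb2 and Serpinb10, with normal bladder at the bottom, follow directly on Serpinb7, with normal bladder at the top. On the other side of Serpinb7 lies Serpinb11, a clade B gene of the same row which read 6.46, 6.34 and 7.70 (log2) in tumors, 4.76, 7.59 and 9.74 in adjacent tissue and 4.99, 3.17 and 5.37 in normal bladder. Its tumors lay above all normal samples, with a log2 difference of 2.32 (SE 0.67) that did not pass (adjusted p = 0.0547 from limma). All normal samples of Serpinb11 were dim, so the size of this difference is uncertain. Chromosome 17 holds Serpinb6a, Serpinb9 and Serpinb1a, whose levels in normal bladder were already bright.

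The other clade B serpins were listed from general knowledge, with earlier results known, and 5 of 17 listed genes were measured. In each comparison 0 of the 5 passed by limma. The median log2 difference was 0.01 in tumors and 1.60 in adjacent tissue against normal bladder, beside 0.05 and 0.01 over all genes. Serpinb3, a member of the squamous cell carcinoma antigen group in humans, and Serpinb12 were highest in adjacent sample 3, at 8.70 and 8.62. Both were dim in all normal samples and in adjacent sample 1. Serpinb12 was also dim in every tumor, and Serpinb3 in tumors 1 and 2. In adjacent tissue against normal bladder, Serpinb11 had a log2 difference of 2.85 (adjusted p = 0.140) and Serpinb12 one of 1.85 (adjusted p = 0.209). The normal samples of both genes were all dim, so these sizes are uncertain. Serpinb6b had 6.91, 6.56 and 7.09 in tumors against 7.57, 7.62 and 7.63 in normal bladder, a log2 difference of -0.75 (SE 0.22, adjusted p = 0.0567). When an array was left out, the count of genes called varied between 0 and 2 in tumors and between 0 and 3 in adjacent tissue.

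Some of the other stefins and cystatins also rose. Of 23 listed, 12 were measured, and 3 rose and 0 fell in tumors, while 4 rose and 0 fell in adjacent tissue, both against normal bladder. The share that rose is 25% in tumors and 33.3% in adjacent tissue, beside 13.6% and 13.3% of all genes. Cst6 encodes cystatin E/M, a secreted inhibitor of legumain and cathepsin L in squamous epithelium. Tumors had log2 signals of 12.83, 14.41 and 13.20, adjacent tissue had 12.39, 13.08 and 13.42 and normal bladder had 9.92, 9.38 and 9.82, with no overlap. Cst6 rose by 3.77 in tumors (SE 0.39, adjusted p = 0.00303) and by 3.26 in adjacent tissue (SE 0.27, adjusted p = 0.000634), and both calls held in all 14 alternatives. Cst7, the leukocyte cystatin F that controls cathepsin C, rose by 1.38 (SE 0.23, adjusted p = 0.0104) and by 2.28 (SE 0.25, adjusted p = 0.00149). In tumors the Cst7 call was lost when normal sample 1 or 2 was left out (highest adjusted p over its alternatives 0.0571).

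Stfa3, the stefin at the edge of the Stfa2l2 cluster, had a log2 signal of 6.68, 4.82 and 9.31 in tumors, 6.02, 11.81 and 13.98 in adjacent tissue and 1.67, 4.20 and 4.0 in normal bladder. Stfa3 has 2 probe sets, of which the brighter is given. Whether this probe set and that of Stfa2l2 take up transcripts of each other's gene cannot be told apart here. Like Stfa2l2, Stfa3 was highest in adjacent sample 3 and, among tumors, in tumor 3. It was at least 31.1-fold higher in adjacent tissue, or at least 9.66-fold without adjacent sample 3 and 152.3-fold without adjacent sample 1 (adjusted p = 0.0277 from limma), a call lost without adjacent sample 2 or each normal sample in turn (adjusted p up to 0.163 over its alternatives), and did not pass in tumors (adjusted p = 0.0787). Fetub, a liver-derived cystatin-like inhibitor of metalloproteases, was dim or nearly so on all arrays but adjacent sample 3 (log2 6.82). It passed in tumors (adjusted p = 0.0494) and in adjacent tissue (adjusted p = 0.0151), and its calls were lost in 8 and 3 of 13 alternatives, in both comparisons without normal sample 2 or 3 and, in tumors, also without tumor 2, tumor 3 or normal sample 1. The list's median log2 difference was 1.0 in tumors and 0.39 in adjacent tissue.

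The summed signals of genes listed for neutrophils and for basal and squamous epithelium were above normal bladder in every tumor and adjacent sample, as were Stfa2l2, Serpinb10 and Serpinb2. The summed signal of 9 measured neutrophil genes was 1154% to 6570% of the normal mean in tumors, 1966% to 16200% in adjacent tissue and 87.9% to 115.8% in normal bladder. S100a8 and S100a9 held 86.5% to 95% of this sum in tumors, 85.8% to 93.3% in adjacent tissue and 18.3% to 44.8% in normal bladder. The other 7 genes summed to 231% to 512% of the normal mean in tumors, 194% to 1780% in adjacent tissue and 88.6% to 117% in normal bladder, and Cxcr1 was dim on all arrays but normal sample 1 (log2 5.70). The highest array of both sums was adjacent sample 3, where Stfa2l2 and Serpinb2 also peaked, while Serpinb10 was highest in tumor 3. Of the 9 genes, 3 rose in tumors and 4 in adjacent tissue, 2 to 4 were dim on a tumor, 1 to 5 on an adjacent sample and 7 to 9 on a normal one. S100a8, a calcium-binding protein of neutrophils and of stressed epithelium, had 10.22, 11.40 and 12.42 in tumors, 11.15, 10.75 and 14.29 in adjacent tissue and 4.09, 4.97 and 5.44 in normal bladder. The neutrophil granule gene Camp was dim on all arrays but adjacent sample 3 (log2 6.96), and Mmp8 on all but that array and tumor 3 (7.91 and 5.68).

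The summed signal of 17 basal and squamous genes was 191.8% to 274.6% of the normal mean in tumors, 196.3% to 399.5% in adjacent tissue and 95.1% to 103.4% in normal bladder, again highest in adjacent sample 3. Of these, 10 rose in tumors and 14 in adjacent tissue, and 0 fell. On tumors 1, 2 and 3, 1, 3 and 0 of the 17 were dim, and 4 or 5 on a normal sample. Not every squamous gene was raised in every tumor. In tumor 2, Loricrin (log2 3.00) and Sprr3 (2.74) lay below all normal samples. Tgm1 was 11.17 there, against 4.30, 4.95 and 5.14 in normal bladder. Macrophage and monocyte genes (12 measured) summed to 118.5% to 155.8% of the normal mean in tumors and 122% to 181.9% in adjacent tissue, against 96.9% to 106.1% in normal bladder. Their median log2 difference was only 0.08 in tumors and 0.13 in adjacent tissue, and single genes differed in direction. Cd14 read 10.94, 11.41 and 12.41 in tumors, 11.41, 11.61 and 13.33 in adjacent tissue and 9.98, 9.97 and 9.98 in normal bladder. Cd163 read 10.47, 6.62 and 7.79 in tumors against 9.34, 9.39 and 9.31 in normal bladder. The part of these cell types in the results for the members was not tested.

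The summed signals of muscle and fibroblast markers were below those of normal bladder, as were the means of Serpinb7, Serpinb9 and Cst3. The summed signal of 13 smooth muscle genes was 6.92% to 70.1% of the normal mean in tumors, 7.69% to 37.1% in adjacent tissue and 98.7% to 102.5% in normal bladder. That of 10 fibroblast genes was 8.60% to 77.3% in tumors, 22.1% to 64.3% in adjacent tissue and 98.3% to 101.8% in normal bladder. Of the muscle genes 6 fell in tumors and 13 in adjacent tissue, and of the fibroblast genes 0 fell in tumors and 4 in adjacent tissue, with 0 that rose. Among the fibroblast genes, the mean of Thy1 was above normal bladder in tumors (9.52, 9.79 and 8.99 in tumors, 8.98, 8.67 and 8.70 in normal bladder), and so was that of Fap (7.05, 7.14 and 6.79 in tumors, 6.58, 6.19 and 6.0 in normal bladder), and neither passed (adjusted p = 0.0895 and 0.109 from limma). In both lists tumor 1 was the highest tumor, as it was for Serpinb7, Serpinb9 and Cst3. Adjacent sample 1 was the highest adjacent sample in both lists and on the brighter probe sets of Serpinb7 and Serpinb9. For Cst3 (12.53) and on the other probe sets of Serpinb7 (2.12) and Serpinb9 (9.26) it was the lowest adjacent sample. Umbrella cell genes of the urothelium (8 measured) summed to 76.5% to 94.2% of the normal mean in tumors. Their sum was 61.0% to 109.8% in adjacent tissue and 97.1% to 104% in normal bladder. Single genes of this list differed in direction: 1 rose and 2 fell in tumors, and 1 rose and 1 fell in adjacent tissue. Krt20 read 7.15, 3.72 and 6.53 in tumors against 9.64, 9.58 and 9.64 in normal bladder. Elf3 read 10.87, 12.47 and 12.12 in tumors against 9.36, 9.20 and 9.18 in normal bladder. Serpinb9 is known in T and NK cells, for which 13 genes were measured. Their sum was 87.3% to 149.1% in tumors, 177.9% to 196.5% in adjacent tissue and 89.3% to 106.6% in normal bladder. Of the 13, 2 rose in tumors and 3 in adjacent tissue, and 0 fell. Many were dim: 3, 10 and 7 on tumors 1, 2 and 3, 5, 3 and 4 on the adjacent samples and 8 on each normal sample. The part of these cell types in the results was not tested either.

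**Figure D4:**
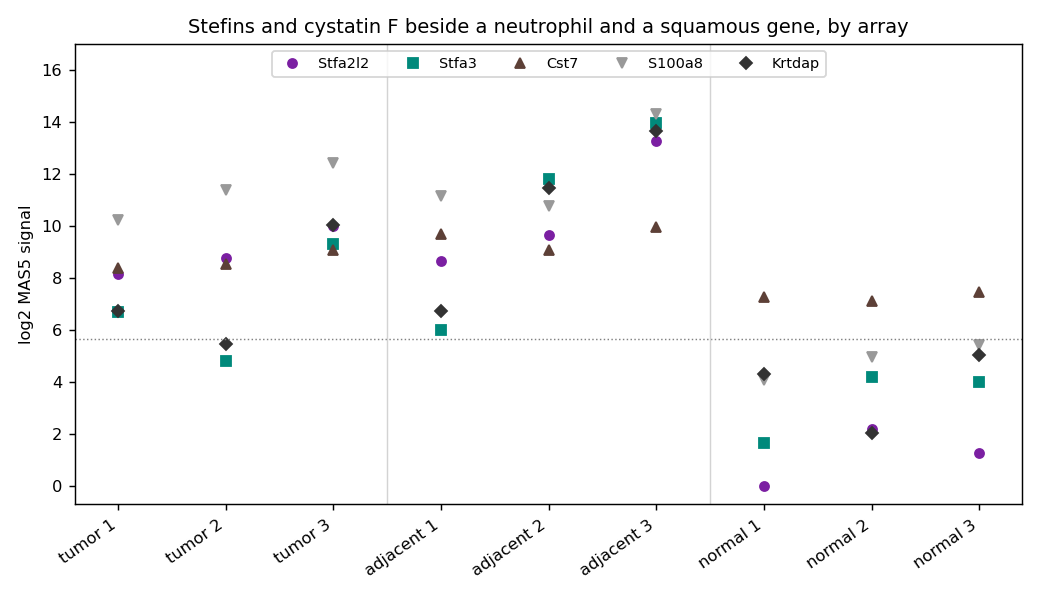
log2 MAS 5.0 signal (y axis) on each of the 9 arrays (x axis) of Stfa2l2 (purple circles), Stfa3 (green squares) and Cst7 (brown triangles), with S100a8 of neutrophils (grey triangles) and Krtdap of squamous epithelium (black diamonds); the dotted line marks a signal of 50. All 5 genes are highest in adjacent sample 3, where Stfa2l2 reaches 13.28, and Stfa2l2 is lowest in normal bladder.

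The genes with the most similar pattern over the 9 arrays were sought among 11737 other genes with a group mean over 50. For Serpinb2 they were Krt6c, a keratin of activated squamous epithelium (r = 0.997), Anxa1, which encodes annexin A1 of epithelium and phagocytes (r = 0.994), and Mki67, the proliferation marker Ki-67 (r = 0.994). Krt6c had 12.83, 12.80 and 13.23 in tumors, 11.88, 12.96 and 13.60 in adjacent tissue and 6.47, 6.22 and 6.69 in normal bladder. For Stfa2l2 they were Cstf3, an RNA cleavage factor (r = 0.993), Bcl2a1, an anti-apoptotic gene of myeloid cells (r = 0.991), and S100a8 (r = 0.989). Bcl2a1 had 9.67, 9.76 and 10.56 in tumors, 9.93, 10.26 and 11.39 in adjacent tissue and 7.56, 7.62 and 7.58 in normal bladder, highest in adjacent sample 3 like Stfa2l2. For each of these genes normal bladder lay apart from the other samples, and the coefficients are given with no test.

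The serine proteases and caspases that clade B serpins meet were measured for 27 of 38 listed genes. Against normal bladder, 5 rose and 0 fell in tumors, and 6 rose and 1 fell in adjacent tissue. These are 18.5% and 22.2% that rose, beside 13.6% and 13.3% of all genes. Plau encodes urokinase-type plasminogen activator, a known target of the Serpinb2 product. It read 11.27, 12.63 and 12.42 (log2) in tumors, 10.83, 11.20 and 12.60 in adjacent tissue and 9.17, 9.02 and 8.88 in normal bladder. Plau thus rose in the same samples as Serpinb2, by 3.08 in tumors (SE 0.34, adjusted p = 0.00345) and by 2.52 in adjacent tissue (SE 0.41, adjusted p = 0.00546). Plat, which encodes the tissue-type plasminogen activator and is the other such target, rose by 2.35 in tumors (SE 0.22, adjusted p = 0.00251) and by 2.12 in adjacent tissue (SE 0.32, adjusted p = 0.00422). The calls of both genes in tumors held in all 14 alternatives, while those in adjacent tissue were lost by the methods' test alone (adjusted p = 0.0746 for Plau and 0.0649 for Plat).

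Prss22, an epithelial tryptase, rose by 2.53 in tumors (SE 0.58, adjusted p = 0.0263), a call lost in 7 of 14 alternatives, also when tumor 2, tumor 3 or a normal sample was left out. Plat in tumors, St14 (matriptase of epithelium, 1.63 higher) and the mast cell tryptase Tpsab1 (2.39 higher) complete the 5 that rose in tumors and are named after their values were seen. The St14 call held in all 14 alternatives, and that of Tpsab1 was lost without tumor 2 or each normal sample in turn (adjusted p up to 0.141 over its alternatives). Hpn, the membrane protease hepsin, was lower in adjacent tissue by the test (log2 difference -1.35, adjusted p = 0.0493), but its call was lost without any 1 of the 6 arrays (adjusted p up to 0.178 over its alternatives). Its adjacent arrays were all dim (log2 4.34, 4.65 and 4.80). Normal bladder lay just above the dim limit (6.17, 5.89 and 5.77), so the size of the Hpn difference is uncertain. The list's median log2 difference was 0.71 in tumors and 1.49 in adjacent tissue, where 0.05 and 0.01 were found over all genes.

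The cysteine cathepsins and legumain, the enzymes that stefins and cystatin C inhibit, were all measured (11 of 11). In tumors 3 rose and 2 fell, and in adjacent tissue 4 rose and 3 fell. In tumors 27.3% rose and 18.2% fell, beside 13.6% and 9.95% of all genes, and in adjacent tissue 36.4% rose and 27.3% fell, beside 13.3% and 11.5%. Ctsl, a lysosomal endopeptidase, had 13.36, 13.92 and 13.65 in tumors, 12.77, 12.68 and 13.34 in adjacent tissue and 12.43, 12.40 and 12.60 in normal bladder. Ctsl rose by 1.17 in tumors (SE 0.16, adjusted p = 0.00646, held in all 14 alternatives) and did not pass in adjacent tissue (0.45, adjusted p = 0.137). Ctsc, which activates the serine proteases of immune cell granules, rose by 0.69 in tumors (adjusted p = 0.0152) and by 0.91 in adjacent tissue (adjusted p = 0.0174), and Ctsz rose by 1.09 in adjacent tissue (adjusted p = 0.0253). Ctso fell by 1.32 in tumors (adjusted p = 0.00831) and by 1.04 in adjacent tissue (adjusted p = 0.0257), and Ctsf fell by 1.26 in tumors (adjusted p = 0.0148) and by 1.27 in adjacent tissue (adjusted p = 0.00447).

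Most cathepsin calls needed all the normal arrays. The Ctsc call in both comparisons, that of Ctsf in tumors and those of Ctsz and Ctso in adjacent tissue were lost without each normal sample in turn (adjusted p up to 0.117 over their alternatives), that of Ctsz also without adjacent sample 2, and that of Ctso in tumors without normal sample 1 (adjusted p = 0.0505). Without an array, 1 to 7 of the 11 genes were called in tumors and 1 to 7 in adjacent tissue. The list's median log2 difference was 0.52 in tumors and 0.45 in adjacent tissue. Beside these enzymes, Cstb was higher and Cst3 lower in the same samples.

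**Figure D5:**
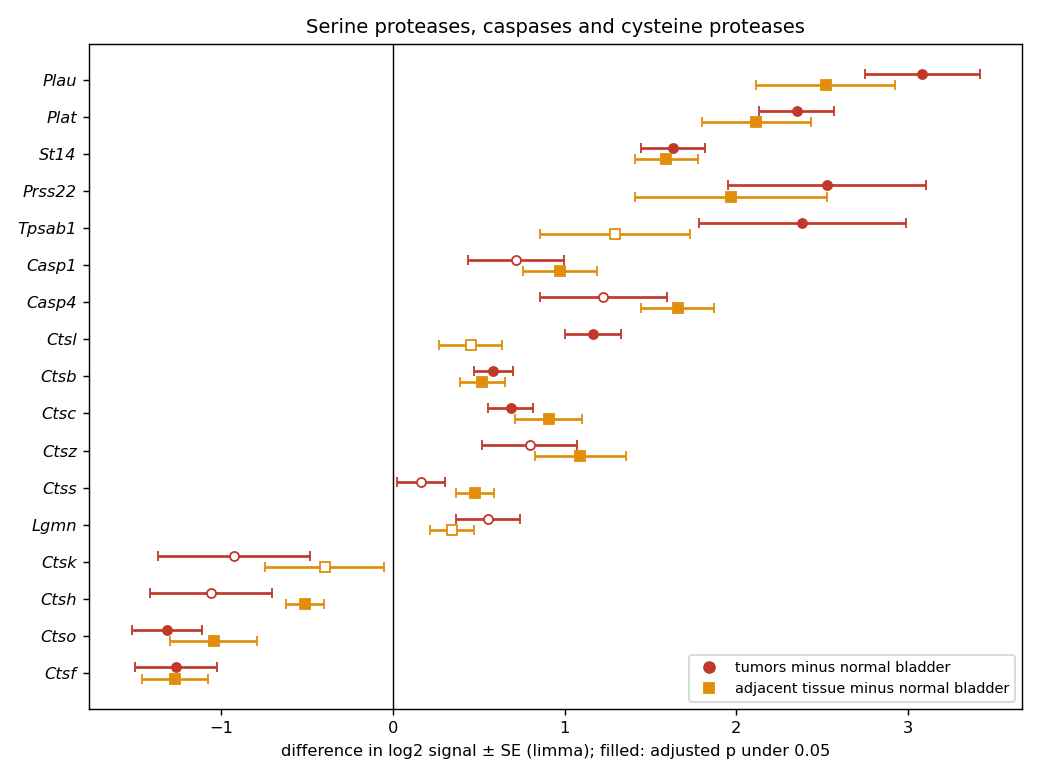
Difference in log2 signal from normal bladder (x axis, limma estimate, bars show ± SE, 3 arrays per group) of serine proteases, caspases and cysteine proteases (y axis) in tumors (red circles) and adjacent tissue (orange squares); filled symbols have an adjusted p under 0.05. Plau, Plat and St14 are filled on the right in both comparisons, and Ctso and Ctsf are filled on the left in both; the genes shown, chosen after their values were seen, are most of those called plus Lgmn and Ctsk.

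The serpins of other clades, mostly secreted into plasma and extracellular matrix, had no gene that rose. Of 27 listed, 22 were measured, and in tumors 0 rose and 1 fell, while in adjacent tissue 0 rose and 2 fell. The share that fell is 4.55% in tumors and 9.09% in adjacent tissue, beside 9.95% and 11.5% of all genes. The 1 gene that fell in tumors was Serpinh1, a collagen chaperone that inhibits no protease. Serpinh1 fell by 1.10 in tumors (SE 0.23, adjusted p = 0.0196 from limma) and by 1.77 in adjacent tissue (SE 0.22, adjusted p = 0.00231). In tumors this call was lost without tumors 2 and 3 and each normal sample in turn (adjusted p up to 0.103 over its alternatives). Serpinf1, which encodes pigment epithelium-derived factor, had 11.27, 4.65 and 8.03 in tumors, 10.25, 10.27 and 8.97 in adjacent tissue and 12.12, 12.20 and 12.21 in normal bladder. It fell by 2.35 in adjacent tissue (SE 0.33, adjusted p = 0.00321) and did not pass in tumors (adjusted p = 0.0866). The call in adjacent tissue was lost by the methods' test and in the joint fit of all arrays (highest adjusted p over its alternatives 0.249). The list's median log2 difference was -0.50 in tumors and -0.48 in adjacent tissue. Between tumors and adjacent tissue, 0 genes of these lists passed by limma.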

How the data were processed

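RNA of 9 rat bladder samples was measured on Affymetrix arrays after 3' in vitro transcription. The authors normalized the arrays with the MAS 5.0 algorithm, and the deposited values are log2 signals: trimmed by 2% at each end, their linear mean was 500.1 to 500.2 on every array. No scaling was added in the main analysis. Of 31099 probe sets, 57 array controls were left out, and 31042 were tested, of which 20826 name 1 gene, 436 several and 9780 none. Each gene was represented by its probe set with the highest mean over the 9 arrays. The number of arrays limits the precision.

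For each comparison, only its 2 groups were fitted, with limma 3.58.1 (lmFit, eBayes with a mean-variance trend) in R 4.3.3, and p-values were adjusted over 31042 probe sets (Benjamini-Hochberg, threshold 0.05). The procedure was tested on simulated data. Replicates are separate rats within a group, and tumors and adjacent tissue come from the same 3 rats, so p-values between them treat shared animals as separate. The members, gene lists and tests were chosen with earlier results of these data known. The named genes are all members with every probe set, the 2 highest and 2 lowest called genes of each family list in each comparison (or, with none called, the 2 of smallest p), and the 3 genes most similar to Serpinb2 and to Stfa2l2. Serpinb3, St14, Tpsab1 and the single marker genes given with values were added after their values were seen. Alternatives were quantile normalization, median centring, leaving out the dimmest 40% of probe sets, a pseudocount of 50, no variance trend, all 9 arrays in 1 fit, the replicate number as a block, the methods' test of means, averaging the probe sets of a gene, and leaving out each array. Promoter sequences came from RefSeq (GRCr8). Probe-level intensity files, other experiments of the study and protein sequences were not used here.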

Additional observations from a re-analysis of the deposited data

How the results depend on the processing

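Each member kept the direction of every called difference in all alternatives run. In tumors against normal bladder, 6 of 9 genes were called, and 4 to 8 in the alternatives (5 to 8 without an array). In adjacent tissue against normal bladder, 8 were called, 5 by the methods' test and 6 to 8 in the other alternatives (7 to 8 without an array). Between tumors and adjacent tissue, 0 were called under each. Of the values of single members, 15 of 124 changed their call in tumors against normal bladder, 11 of 125 in adjacent tissue against normal bladder and 0 of 125 between tumors and adjacent tissue. The filter at the 40th percentile removed Serpinb10 from tumors against normal bladder, Stfa2l2 from both comparisons with normal bladder and Serpinb7 from tumors against adjacent tissue, so these have no value there. Adding 50 before log2 reduced the log2 difference of Serpinb2 to 6.90 in tumors and 7.0 in adjacent tissue.

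Over all probe sets, 5574 were called in tumors against normal bladder, 2376 without a variance trend, 1764 by the methods' test and 1453 to 9216 without an array. In adjacent tissue against normal bladder, 5873 were called, 3414 without a trend, 2394 by the methods' test and 2691 to 7198 without an array. The cause was not tested, although fewer arrays also leave fewer degrees of freedom. With the replicate number as a replicate block, 3705 and 4717 probe sets and 7 and 8 members were called in these comparisons, and 0 between tumors and adjacent tissue. Normal bladder came from other rats, so in the comparisons with it the block matches separate animals by number alone. The deviations of tumors and adjacent samples of equal number had correlations of 0.24, 0.044 and 0.137, and those of unequal number lay between -0.212 and 0.106. Since the value of 0.044 lies within the range of unequal numbers, the numbers were not taken to pair the samples. Dim signals limit Serpinb7 and the size of the differences of Serpinb2, Serpinb10 and Stfa2l2. The alternatives for the other family lists were added after the data were seen.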
